A study of Mus musculus with 8 samples.

Results

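The chromatin repressors of 2-cell stage genes and retroelements are described here in Rad21-depleted mouse embryonic stem cells (ESCs). The set holds 10 genes: Trim28, Setdb1, Chaf1a, Chaf1b, Kdm1a, Ehmt1, Ehmt2, Daxx, Atrx and Rif1. They were chosen by name, and their probe sets were those to which the platform annotation gives one of these symbols and no other. This found 24 of the 45037 probe sets tested and 9 of the 10 genes, out of 18193 genes in the series. Chaf1a had no such probe set and was not analysed here. RNA came from R1/E cells, a feeder-free mouse ESC line grown with LIF, the cytokine that keeps ESCs undifferentiated in culture. The Rad21 knock-down (4 arrays) had been transfected for 48 h with 800 ng of esiRNA against Rad21 (short interfering RNAs cut by an enzyme out of a longer double-stranded RNA) at 80000 cells per well. The Luc control (4 arrays) had received the same amount of esiRNA against luciferase, which mouse cells do not contain. Both groups shared the cell line, transfection reagent and time, and both were bulk cultures of a single line. Rad21 was depleted and not deleted. The labels call the arrays of each group biological replicates 1 to 4 and name no batch.

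ESC cultures silence the genes of the 2-cell embryo, the stage at which transcription of the mouse genome begins in earnest, together with the endogenous retroviruses that drive many of them. The repressors work by different routes. KRAB zinc finger proteins bring Trim28 and the histone methyltransferase Setdb1 to retroelements, Ehmt1 and Ehmt2 place H3K9 methylation, Kdm1a removes H3K4 methylation, and histone chaperones (Chaf1a with Chaf1b, Daxx with Atrx) load nucleosomes onto the silenced DNA. Loss of several of these factors is known to raise 2-cell stage transcripts in mouse ESCs.

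Rad21, which encodes the cleavable subunit of the cohesin ring, checked the labels. Its brightest probe set had 11.69, 11.75, 12.37 and 12.52 in the Rad21 knock-down and 13.62, 13.42, 13.83 and 13.79 in the Luc control (log2 GCRMA values of replicates 1 to 4, the scale used throughout). All 4 knock-down arrays lay below all 4 control arrays. The difference was -1.58 ± 0.21 (SE), 33.4% of the control (limma adjusted p = 0.00222). It was -1.80 within replicates 1 and 2 and -1.36 within replicates 3 and 4. The test of these 2 values against each other did not pass (limma interaction adjusted p = 0.201). The other 2 Rad21 probe sets differed by -0.98 and -2.59. Array medians ran between 3.08 and 3.16. The first principal component (66.2% of the variance) parted the groups and the second (11.6%) parted the first 2 replicates of each group from the last 2. The comparisons were therefore also made within each of these replicate sets. The ESC identity of the cultures was checked with 8 markers, all above a mean of 4. Of these, 6 were lower in the knock-down (Esrrb, Nanog, Pou5f1, Zfp42, Utf1 and Dppa5a), 0 were higher, and their mean log2 value lay between 13.63 and 13.67 on the knock-down arrays and between 14.08 and 14.15 on the control arrays. Means of 6 primitive endoderm markers lay between 4.03 and 4.30 in the knock-down and between 2.97 and 3.06 in the control. Gata4, Gata6 and Sox17, which define that lineage, were near the plateau of dim probe sets in both groups, while 2 of the 6 (Foxa2 and Dab2) were higher in the knock-down. For 5 trophectoderm markers, of which 2 were higher (Cdx2 and Krt7), the means lay between 6.25 and 6.49 in the knock-down and between 5.27 and 5.65 in the control. Of the others, Krt8 (0.52) and Eomes (-0.063) were not called, and Elf5 was in the plateau in both groups. Of 7 fibroblast markers, 6 had a mean under 4, 0 were higher and 1 (Thy1) was lower. Whether these shifts have a part in the values below was not tested, and in bulk RNA fewer cells of a type and less RNA per cell cannot be told apart.

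With each gene represented by its brightest probe set, 4 of the 9 repressor genes were lower in the knock-down, 1 was higher and 4 were not called (limma, adjusted p under 0.05 over 45037 probe sets). The genes that fell were Setdb1, Ehmt2, Daxx and Kdm1a, and the one that rose was Rif1. Across all 18193 genes 22.6% were called, 12.6% lower and 10.1% higher. All 9 repressor genes were well expressed, and among the 10299 genes with a mean of 4 or more the share called was 38.6%, with 22% lower and 16.7% higher. The 5 of 9 repressors called are therefore set against a background in which many expressed genes changed. The groups did not overlap at 7 of the 9 genes, against 27.8% of all genes and 45.7% of expressed genes. The changes were small: the largest among called repressors was 0.49 on the log2 scale, where called expressed genes had a median change of 0.46 in size, with quartiles of 0.29 and 0.74. The median log2 difference of the 9 genes was -0.21, against -0.03 over expressed genes and 0.0033 over all genes. The plot of values by array shows all 9 genes.

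**Figure D1:**
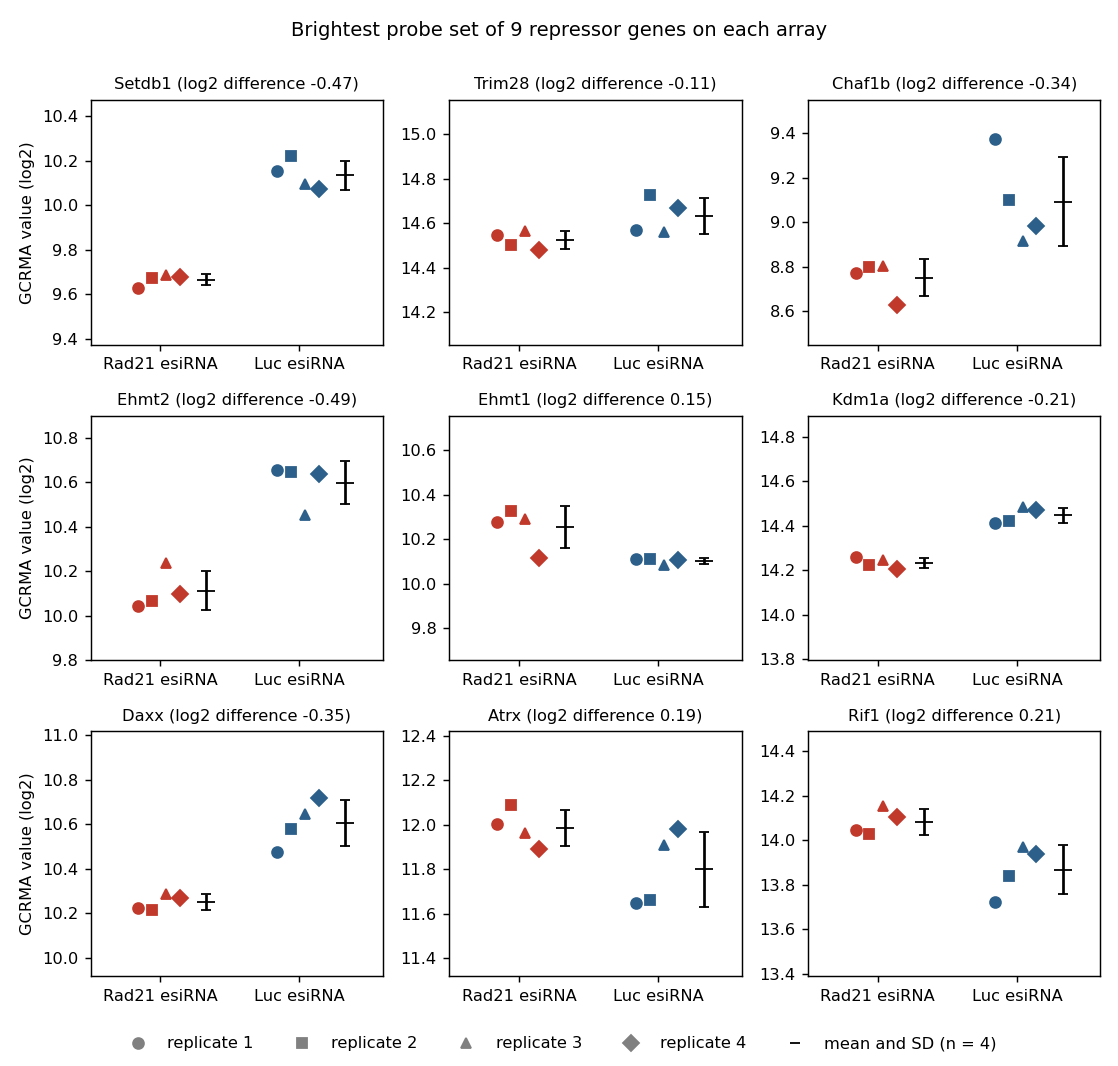
GCRMA values (log2) of the brightest probe set of each of the 9 repressor genes, with the Rad21 esiRNA arrays in red and the Luc esiRNA arrays in blue; symbols mark replicates, and bars show the mean and SD of 4 arrays. The vertical axes span the same number of log2 units and do not start at 0. Setdb1, Ehmt2, Daxx and Kdm1a were lower on every knock-down array than on any control array, and Rif1 was higher.

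The promoters of the 4 genes that fell are printed because these genes moved in the same direction. They are RefSeq sequences of the mouse assembly GRCm38.p6, 250 bases before to 50 bases after the first listed start of transcription, read 5′ to 3′ on the gene's strand. Capitals mark the words found out of 6 that were searched on both strands: the GC box GGGCGG, the CCAAT box CCAAT, the ETS word CCGGAAG, the E-box CACGTG, the cyclic AMP response element TGACGTCA and the E2F word TTTNGCGC.
Setdb1 promoter, chr3:95357153-95357452, minus strand: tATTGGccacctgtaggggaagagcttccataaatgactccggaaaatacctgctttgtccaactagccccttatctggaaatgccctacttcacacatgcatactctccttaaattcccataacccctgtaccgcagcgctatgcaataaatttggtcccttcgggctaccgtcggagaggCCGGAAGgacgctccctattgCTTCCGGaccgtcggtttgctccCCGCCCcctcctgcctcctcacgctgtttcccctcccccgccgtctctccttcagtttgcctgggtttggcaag
Ehmt2 promoter, chr17:34898224-34898523, plus strand: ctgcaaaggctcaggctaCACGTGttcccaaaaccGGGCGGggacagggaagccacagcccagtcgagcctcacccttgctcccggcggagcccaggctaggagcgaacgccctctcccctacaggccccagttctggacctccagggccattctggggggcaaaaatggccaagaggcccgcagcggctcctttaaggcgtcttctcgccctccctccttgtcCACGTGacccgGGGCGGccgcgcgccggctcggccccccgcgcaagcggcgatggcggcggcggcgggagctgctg
Daxx promoter, chr17:33909195-33909494, plus strand: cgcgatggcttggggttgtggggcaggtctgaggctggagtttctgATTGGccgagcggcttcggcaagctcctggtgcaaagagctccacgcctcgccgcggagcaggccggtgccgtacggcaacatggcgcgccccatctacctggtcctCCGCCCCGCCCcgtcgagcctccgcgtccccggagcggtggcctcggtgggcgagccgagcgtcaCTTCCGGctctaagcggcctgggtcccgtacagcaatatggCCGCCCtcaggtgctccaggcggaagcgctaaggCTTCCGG
Kdm1a promoter, chr4:136602674-136602973, minus strand: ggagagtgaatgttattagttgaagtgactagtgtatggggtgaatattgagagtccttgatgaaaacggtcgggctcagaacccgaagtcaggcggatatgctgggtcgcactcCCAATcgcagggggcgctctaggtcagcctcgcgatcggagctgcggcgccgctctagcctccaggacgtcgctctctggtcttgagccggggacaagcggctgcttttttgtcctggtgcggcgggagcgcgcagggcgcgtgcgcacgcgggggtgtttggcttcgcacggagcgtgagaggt
The Setdb1 promoter held 2 ETS words close to the start, and the Daxx promoter also held 2 ETS words, the second of them at the end of the window. ETS words stood in 8.86% of the 32851 RefSeq promoters of this length. Ehmt2 held 2 E-boxes, found in 7.15% of promoters, and 2 GC boxes, found in 35.7%. Daxx held 3 GC boxes, of which 2 overlap by 1 base, and Setdb1 held 1. Kdm1a held 1 CCAAT box, a word of 37.4% of promoters, and no other searched word. Setdb1 and Daxx also held 1 CCAAT box each. The 4 windows held 15 (Setdb1), 28 (Ehmt2), 33 (Daxx) and 29 (Kdm1a) CpG dinucleotides, against a median of 7 over all promoters. Those of the uncalled Ehmt1, Chaf1b, Trim28 and Atrx held 34, 30, 23 and 11, and that of the unmeasured Chaf1a held 32. Of the 10 repressors 9 had a listed promoter (Rif1 is named only). Among these 9, GC boxes stood in 7, CCAAT boxes in 5, ETS words in 3 and E-boxes in 2. Ehmt1, Chaf1b and Trim28, which were not called, also held GC boxes, and the other gene with an E-box was Chaf1a, which was not measured. The other gene with an ETS word was Chaf1b, and the uncalled Atrx held 4 CCAAT boxes. The cyclic AMP response element and the E2F word stood in 0 of the 9 windows and in 1.79% and 1.38% of all promoters. A word in a window is a description of these letters and not a measured binding site.

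Setdb1, which trimethylates H3K9 at retroelements, fell by 0.47 on the log2 scale. Its brightest probe set had 9.63, 9.67, 9.69 and 9.68 in the Rad21 knock-down and 10.15, 10.22, 10.09 and 10.07 in the Luc control. The 4 knock-down arrays lay within 0.06 of each other and all lay below the lowest control array. Means were 9.67 ± 0.026 in the Rad21 knock-down and 10.13 ± 0.066 in the Luc control (SD, n = 4 each), which is 72.3% of the control (difference -0.47 ± 0.035 SE, limma adjusted p = 1.83e-04). The fall was called within replicates 1 and 2 (-0.54) and within replicates 3 and 4 (-0.40), and without each array in turn. The other 2 Setdb1 probe sets had means of 3.46 and 2.18, in the plateau of dim probe sets, and differed by -0.0017 and -0.013. With all 3 averaged the difference was -0.16 and was still called (limma adjusted p = 0.0106).

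Trim28, the corepressor that bridges KRAB zinc finger proteins to Setdb1, was not called. Its brightest probe set had 14.55, 14.50, 14.57 and 14.48 in the Rad21 knock-down and 14.57, 14.73, 14.56 and 14.67 in the Luc control. Control replicate 3 lay just below knock-down replicate 3, so the groups overlapped, and control replicate 1 lay just above it. The difference was -0.11 ± 0.043 SE (limma adjusted p = 0.177, 95% interval -0.21 to -0.0064), and the interval does not reach the size of the Setdb1 fall. This probe set carries the suffix of designs that may also hybridise to related sequences. The second Trim28 probe set, at a mean of 13.28, differed by 0.0048 (95% interval -0.07 to 0.08).

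Chaf1b encodes the middle subunit of chromatin assembly factor 1, which deposits new histones behind the replication fork. Its bright probe set had 8.77, 8.80, 8.80 and 8.63 in the Rad21 knock-down and 9.37, 9.10, 8.92 and 8.98 in the Luc control. All knock-down arrays lay below all control arrays, but control replicate 1 stood 0.28 above the next control. The difference was -0.34 ± 0.10 SE, or 78.9% of the control, and missed the threshold (limma adjusted p = 0.0629, 95% interval -0.58 to -0.11). Leaving out control replicate 1 brought the difference to -0.25 with adjusted p = 0.0485, and leaving out control replicate 3 brought it to -0.40 with adjusted p = 0.0448, both past the threshold. It was also called with the replicate sets as a block (-0.34, limma adjusted p = 0.0279), among probe sets with a mean of 4 or more alone (adjusted p = 0.0263) and, at -0.17, with both Chaf1b probe sets averaged (adjusted p = 0.0452). The second Chaf1b probe set, at a mean of 2.07, was in the plateau.

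Ehmt2 (G9a) and Ehmt1 (GLP) form the heterodimer that places mono- and dimethylation on H3K9. Ehmt2 had 10.04, 10.07, 10.24 and 10.10 in the Rad21 knock-down and 10.65, 10.64, 10.45 and 10.64 in the Luc control. Control replicate 3 was the lowest control and knock-down replicate 3 the highest knock-down array, yet the groups did not overlap. The difference was -0.49 ± 0.060 SE, 71.4% of the control (limma adjusted p = 0.00164). It was called without each array in turn and within replicates 1 and 2 (-0.59, adjusted p = 0.00491), while within replicates 3 and 4 (-0.38) it was not (limma adjusted p = 0.128). A second Ehmt2 probe set at a mean of 2.81 was in the plateau, and with both averaged the difference was -0.24 and was still called (limma adjusted p = 0.00209).

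Ehmt1 had 10.28, 10.33, 10.29 and 10.12 in the Rad21 knock-down and 10.11, 10.11, 10.08 and 10.11 in the Luc control. Knock-down replicates 1 to 3 lay clear of every control array, and replicate 4 lay just above the highest control. The difference of 0.15 ± 0.045 SE missed the threshold (limma adjusted p = 0.0674, 95% interval 0.046 to 0.26). Without knock-down replicate 4 it was 0.20 with adjusted p = 0.00246.

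Kdm1a (LSD1), the H3K4 demethylase that works in the CoREST complex, was the gene with 2 bright probe sets that both fell. The brighter one had 14.26, 14.22, 14.25 and 14.21 in the Rad21 knock-down and 14.41, 14.42, 14.48 and 14.47 in the Luc control. The other had 12.52, 12.57, 12.59 and 12.52 in the Rad21 knock-down and 12.79, 12.85, 12.78 and 12.86 in the Luc control. The groups were apart at both, and no group spread over more than 0.08. The differences were -0.21 ± 0.023 SE, or 86.3% of the control (limma adjusted p = 9.48e-04), and -0.27 ± 0.027 SE, or 83.1% (limma adjusted p = 6.94e-04). At the brighter probe set the fall was -0.18 within replicates 1 and 2 (limma adjusted p = 0.0807) and -0.25 within replicates 3 and 4 (adjusted p = 0.0250). At the other it was -0.27 within replicates 1 and 2 (limma adjusted p = 0.0358) and -0.26 within replicates 3 and 4 (adjusted p = 0.0625).

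Daxx and Atrx together deposit the histone variant H3.3 at telomeres, pericentromeres and retroelements. Daxx, the chaperone of the pair, had 10.22, 10.22, 10.29 and 10.27 in the Rad21 knock-down and 10.47, 10.58, 10.64 and 10.72 in the Luc control at its single probe set. The knock-down arrays clustered within 0.07 of each other, while the control arrays spread over 0.24 above them. The difference was -0.35 ± 0.051 SE, 78.2% of the control (limma adjusted p = 0.00319). It was called within both replicate sets (-0.31 and -0.40).

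Atrx, the ATP-dependent remodeller of the pair, was represented by 7 probe sets, and none was called. The brightest had 12.00, 12.09, 11.96 and 11.89 in the Rad21 knock-down and 11.65, 11.66, 11.91 and 11.98 in the Luc control. Control replicates 1 and 2 lay below every knock-down array, whereas control replicates 3 and 4 lay among them. The difference was 0.19 ± 0.086 SE (limma adjusted p = 0.256, 95% interval -0.016 to 0.39). Within replicates 1 and 2 it was 0.39 (adjusted p = 0.0171) and within replicates 3 and 4 it was -0.018 (adjusted p = 0.819), and the test of this difference between the replicate sets did not pass (limma interaction -0.41, adjusted p = 0.0750). The other 6 Atrx probe sets differed by between -0.54 and 0.32, with 5 negative and 1 positive, so the probe sets of this gene gave no common direction. The next brightest had 10.61, 10.36, 10.04 and 10.32 in the Rad21 knock-down and 10.12, 10.49, 10.82 and 10.77 in the Luc control. Control replicates 3 and 4 were the highest of the 8 arrays there and control replicate 1 was the second lowest, and the difference was 0.18 within replicates 1 and 2 and -0.62 within replicates 3 and 4 (limma adjusted p = 0.723 and 0.0760). The widest difference of the gene, -0.54 ± 0.23 SE at a probe set with a mean of 7.65, also missed the threshold (limma adjusted p = 0.205).

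Rif1, which brings protein phosphatase 1 to late-replicating chromatin and keeps 2-cell stage genes silent in mouse ESCs, was the repressor that rose. Its brightest probe set had 14.04, 14.03, 14.15 and 14.10 in the Rad21 knock-down and 13.72, 13.84, 13.97 and 13.94 in the Luc control. Every knock-down array lay above every control array, with a gap of 0.06 between control replicate 3 and knock-down replicate 2. The difference was 0.21 ± 0.058 SE, 116% of the control (limma adjusted p = 0.0476). Of the other 3 Rif1 probe sets, 1 was also called (0.13 ± 0.035 SE, limma adjusted p = 0.0427), and the others differed by 0.26 (groups overlapping) and 0.68 without a call. The called one had 13.36, 13.45, 13.49 and 13.43 in the Rad21 knock-down and 13.24, 13.31, 13.32 and 13.33 in the Luc control, and its groups were apart. The largest difference, 0.68, came from a probe set with 10.63, 10.70, 10.60 and 11.15 in the Rad21 knock-down and 10.05, 9.49, 10.51 and 10.31 in the Luc control. Knock-down replicate 4 was the highest and control replicate 2 the lowest array there, and the groups did not overlap (limma adjusted p = 0.108). All 4 differences were positive. The call at the brightest probe set held without control replicate 3 (adjusted p = 0.0367) and ended without any other single array, with adjusted p between 0.0621 and 0.116. The plain analysis of variance gave adjusted p = 0.0936. Rif1 was also not called within replicates 1 and 2 (0.25, limma adjusted p = 0.0677), within replicates 3 and 4 (0.17, adjusted p = 0.0665) or with its 4 probe sets averaged (0.32, adjusted p = 0.0645).

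Across all 24 probe sets, 5 were lower, 2 were higher and 17 were not called (limma, adjusted p under 0.05), where 14.9% of all probe sets were called, 8.4% lower and 6.47% higher. Of the 24, 19 had a mean of 4 or more, and the 7 called were all among these. The share over all probe sets takes in many of the plateau. In the fit of the 18983 probe sets with a mean of 4 or more, 4345 were lower and 3300 higher. Of the 19 there, 6 were lower and 2 higher. Groups did not overlap at 11 of the 24, all with a mean of 4 or more, against 19.4% of all probe sets, plateau included. Probe sets of a gene share their RNA and are not replicates of each other. The plot of every probe set shows that 4 of the 5 dim ones had narrow intervals near 0 and that Atrx and Rif1 had the widest.

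**Figure D2:**
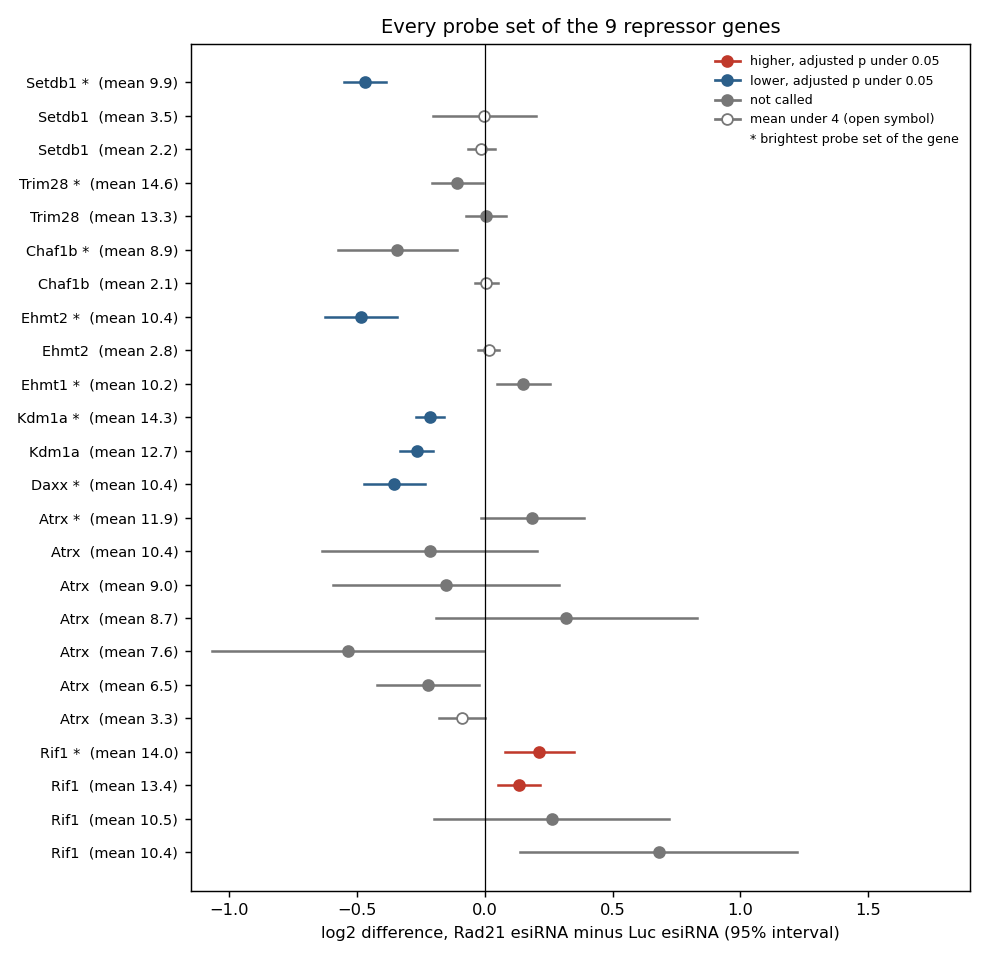
Log2 difference (Rad21 esiRNA minus Luc esiRNA) of all 24 probe sets of the 9 repressor genes, with bars for the 95% interval from the moderated standard error (4 arrays per group). Blue and red mark probe sets lower or higher at adjusted p under 0.05, open symbols a mean under 4, and asterisks the brightest probe set of a gene; 5 were lower and 2 higher.

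At their brightest probe sets, genes of the same complex changed by different amounts. The per-array difference of the 2 log2 values was compared between the groups for 3 pairs by an exact two-sided permutation test of the 8 arrays, in which 0.0286 is the smallest p that 70 splits allow. The change of Trim28 exceeded that of Setdb1 by 0.36 (exact permutation p = 0.0286, adjusted over 3 pairs 0.0286). For Ehmt1 over Ehmt2 the excess was 0.64, and Daxx minus Atrx came to -0.54, each with the same exact permutation p and adjusted p of 0.0286. Within the replicate sets the values were 0.41 and 0.31 for Trim28 and Setdb1, 0.79 and 0.49 for Ehmt1 and Ehmt2, and -0.70 and -0.38 for Daxx and Atrx, with replicates 1 and 2 given first. With all probe sets of a gene averaged, Trim28 minus Setdb1 was 0.11 (exact permutation p = 0.114) and Daxx minus Atrx was -0.25 (exact permutation p = 0.0857), neither past the threshold. Ehmt1 minus Ehmt2 was then 0.39 (exact permutation p = 0.0286). Averaging takes in plateau probe sets of Setdb1, Ehmt2 and Atrx. For Atrx it also takes in well-expressed probe sets with differences of -0.22, -0.15, -0.54, -0.22 and 0.32, against 0.19 at the brightest. The Chaf1a and Chaf1b pair could not be compared.

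Of the 9 genes, 8 had the same sign in both replicate sets and Atrx had not. The median difference was -0.18 for the first of these sets and -0.23 for the other. At their brightest probe sets, Ehmt2, Setdb1, Chaf1b and Trim28 had the larger negative differences in replicates 1 and 2. The brightest Rad21 probe set was lower there in both groups. Kdm1a and Daxx had the larger negative differences in replicates 3 and 4. The second Kdm1a probe set differed by -0.27 in replicates 1 and 2 and by -0.26 in replicates 3 and 4. No difference between the replicate sets passed the limma test for any repressor.

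**Figure D3:**
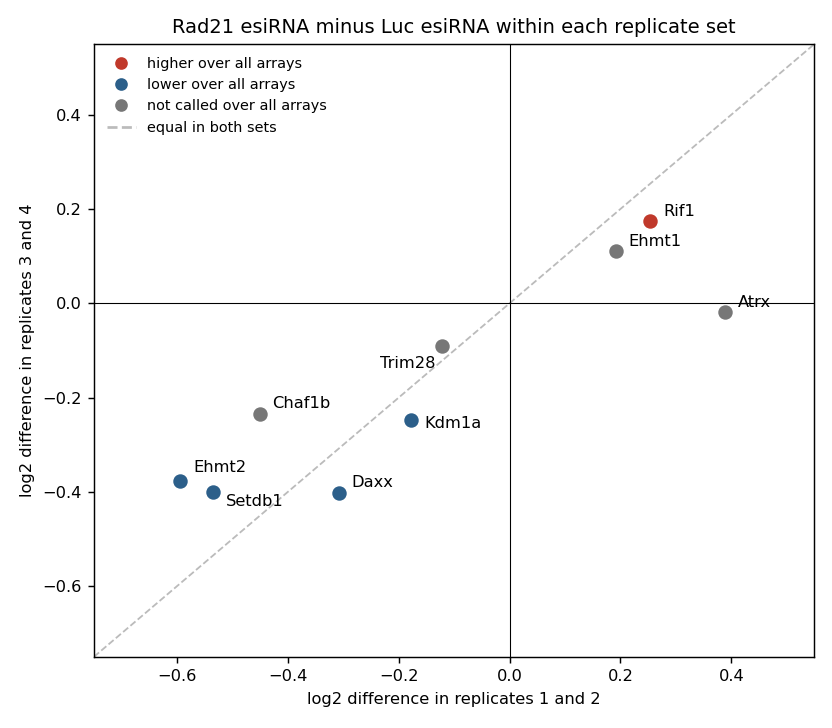
Log2 difference (Rad21 esiRNA minus Luc esiRNA) of the brightest probe set of each repressor gene within replicates 1 and 2 (horizontal axis) and within replicates 3 and 4 (vertical axis), 2 arrays per group in each; the dashed line marks equal values and colours the call over all 8 arrays. Atrx, at 0.39 and -0.018, was the gene with opposite signs.

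Genes that work with these repressors were followed as a list of 56 partners, of which 53 were measured. In the knock-down 11 were lower, 7 were higher and 35 were not called, against 22% lower and 16.7% higher among expressed genes, and their median difference was -0.03. Among the 7 partners of Kdm1a in the CoREST complex 3 were lower and 0 higher. Phf21a, the subunit that binds unmethylated H3K4, had 7.92, 7.80, 7.82 and 7.66 in the Rad21 knock-down and 8.62, 8.65, 8.42 and 8.21 in the Luc control. Its groups were apart, and the difference was -0.68 ± 0.10 SE (limma adjusted p = 0.0043). Hmg20b, an HMG-box subunit, differed by -0.43 (limma adjusted p = 0.0173), a call that ended without control replicate 1 (adjusted p = 0.0512). Hdac2, a histone deacetylase of the complex that is named after its values were seen, differed by -0.21 (limma adjusted p = 9.57e-04). Of the corepressor scaffolds Rcor1, Rcor2 and Rcor3, also named afterwards, none was called at its brightest probe set, with differences of -0.20, -0.17 and 0.17. Of the 3 Rcor1 probe sets, however, 2 were called lower, with differences down to -0.77.

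Among the 6 partners of Daxx and Atrx, 2 were lower and 1 higher at their brightest probe sets. Among expressed genes 22% were lower and 16.7% higher. Cabin1, named after its values were seen, was not called there. It had 1 of 3 probe sets called lower, with differences down to -0.72. Pml, which builds the nuclear bodies that hold Daxx, had 8.64, 8.77, 8.84 and 8.82 in the Rad21 knock-down and 9.38, 9.47, 9.35 and 9.46 in the Luc control. A gap of 0.52 parted the lowest control array and the highest knock-down array, and the difference was -0.65 ± 0.050 SE (limma adjusted p = 2.05e-04). Hira, the chaperone of the other H3.3 deposition route, differed by -0.26 and its partner Ubn1 by 0.31. Both were near the threshold (limma adjusted p = 0.0465 and 0.0438), and of the 8 fits with 1 array left out, the Hira call held in 1 (without control replicate 1) and the Ubn1 call in 2 (without knock-down replicate 3 or control replicate 2).

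Of the 10 partners of Trim28 and Setdb1, 2 were higher and 1 was lower at their brightest probe sets, against 16.7% higher and 22% lower among expressed genes. Resf1, Smarcad1 and Cbx3, named after their values were seen, were not called there. Resf1 had 2 of 4 probe sets called lower, and Smarcad1 had 1 of 2, with differences down to -1.09. The Cbx3 probe set, at a mean of 1.28, was in the plateau. Atf7ip, the protein that stabilises Setdb1 in the nucleus, had 9.61, 9.61, 9.30 and 9.34 in the Rad21 knock-down and 9.15, 9.19, 9.11 and 9.09 in the Luc control. Every knock-down array was above every control array, opposite in direction to Setdb1, and the difference was 0.33 ± 0.081 SE (limma adjusted p = 0.0316). This call held without knock-down replicate 3 or 4 and ended without any other array. Zfp809, the KRAB zinc finger protein that binds the primer binding site of murine leukaemia virus, differed by 0.24 (limma adjusted p = 0.0121). In the HUSH complex, which works with Setdb1 at retroelements and young genes, 1 of 4 members was higher. That was Tasor, its scaffold, at 0.30 (limma adjusted p = 0.0124). The 4 partners of chromatin assembly factor 1 had 0 calls at their brightest probe sets, with differences of between -0.17 and -0.0002. Rbbp4, the histone-binding subunit, named after its values were seen, had 2 of its 4 probe sets called lower, with differences of between -0.35 and 0.11.

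The other enzymes and adaptors of H3K9 methylation went both ways among 5 genes. Setdb2, a second SET domain protein of the Setdb type, had 7.26, 7.50, 7.23 and 7.57 in the Rad21 knock-down and 7.85, 7.91, 7.89 and 7.99 in the Luc control. The groups were apart by 0.29, and the difference was -0.52 ± 0.081 SE (limma adjusted p = 0.00454). Zfp644, a zinc finger partner of the Ehmt1 and Ehmt2 complex, was higher by 0.51 (limma adjusted p = 0.00208). Of 14 other repressors of 2-cell stage genes 4 were lower and 2 higher, against 22% lower and 16.7% higher among expressed genes. Among the lower ones, Zbtb24 (-0.50, limma adjusted p = 0.00401) is a zinc finger protein needed for DNA methylation at centromeric repeats. Rnf2 (-0.34, limma adjusted p = 2.97e-04) is the ubiquitin ligase of polycomb complex PRC1, and Mga (-0.34, limma adjusted p = 0.0355) is a scaffold of one of its variant forms. The Mga call held without control replicate 2 and ended without any other array. Smchd1, a structural maintenance of chromosomes protein that silences gene clusters and the inactive X chromosome, had 11.60, 11.78, 11.79 and 11.78 in the Rad21 knock-down and 11.31, 11.15, 11.15 and 11.22 in the Luc control. Its groups were apart and its difference of 0.53 ± 0.055 SE (limma adjusted p = 7.48e-04) was the largest rise in the list at a brightest probe set. The second Smchd1 probe set differed by 0.035 and was not called. Lin28a, an RNA-binding protein, was higher by 0.42 (limma adjusted p = 0.00715). Ncl and Uhrf1, named after their values were seen, were not called at their brightest probe sets. Ncl had 1 of 5 probe sets called higher, with differences up to 0.52. Uhrf1 had 1 of 2 called lower, with differences down to -0.53.

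**Figure D4:**
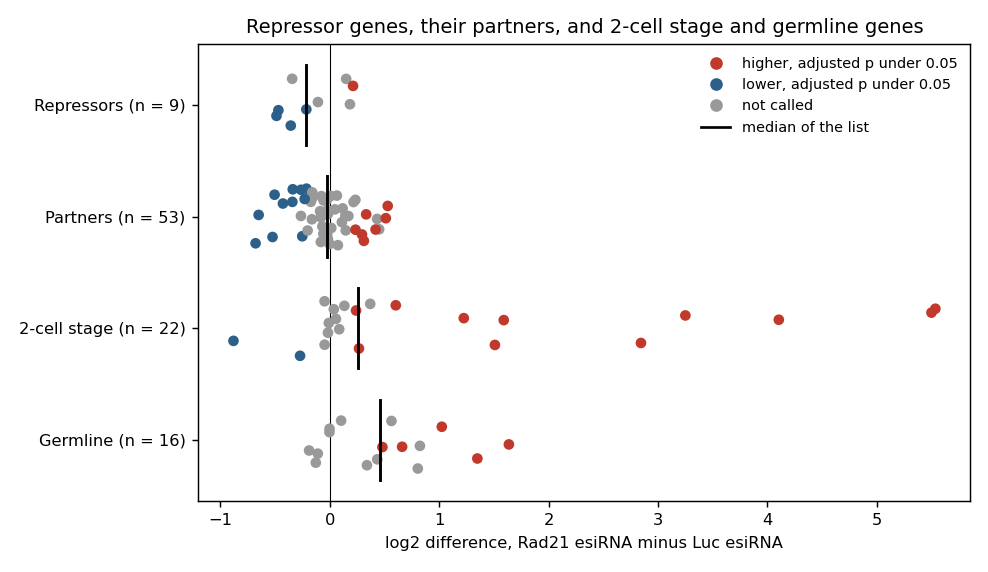
Log2 difference (Rad21 esiRNA minus Luc esiRNA, 4 arrays per group) of each gene's brightest probe set for the 9 repressors, 53 partners, 22 genes of the 2-cell stage and 16 germline genes; black bars are the medians of the groups shown, and vertical scatter within a row has no meaning. Repressors and partners lay within 0.68 of 0, whereas rises among 2-cell stage genes reached 5.53.

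Genes of the 2-cell stage and the germline were followed as a list of 61, of which 38 were measured (26 with a mean of 4 or more). The Zscan4 genes of the list and Dux had no single-symbol probe set. Duxf3, Dppa2 and Nelfa are named after their values were seen. Duxf3 rose by 0.27 from a control mean of 3.39 (limma adjusted p = 0.0298), a call that held in 3 of 8 fits with 1 array left out. Not all of the list was silent in the control. Dppa2 and Nelfa, counted among the rises, had control means of 13.84 and 11.24. In the knock-down 16 of the 38 were higher, 2 were lower and 20 were not called, against 10.1% higher and 12.6% lower over all genes and 16.7% and 22% over expressed genes. Their median difference was 0.36. The list was drawn up with earlier results of these data known and takes in multi-copy genes of the early embryo. These counts therefore describe the list and are no test of it. The 22 genes of the 2-cell stage held 11 rises and both falls, and the 16 germline genes held 5 rises and 0 falls. The largest rises exceeded any change of a repressor. Usp17la, a deubiquitinase of a multi-copy family, had 10.16, 9.99, 9.86 and 10.04 in the Rad21 knock-down and 4.24, 4.71, 4.50 and 4.59 in the Luc control, a difference of 5.50 ± 0.11 SE, or 45.2-fold (limma adjusted p = 1.81e-06). BC080696 differed by 5.53, AF067061 by 4.10, Arg2 (mitochondrial arginase) by 3.25 and Ubtfl1 (an HMG-box protein of the early embryo) by 2.84, each with the groups apart. Probes for BC080696, AF067061, Usp17la and Ubtfl1 may also measure close copies of these genes, so the locus is uncertain.

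Smaller rises came from Taf7l, a germ cell subunit of the general transcription machinery, at 1.64 (limma adjusted p = 0.00679) and Ddit4l, an inhibitor of mTOR signalling, at 1.59 (limma adjusted p = 3.48e-04). Zfp352, a retrotransposed zinc finger gene of the 2-cell embryo, had 5.04, 3.52, 4.39 and 5.22 in the Rad21 knock-down and 3.07, 3.06, 2.97 and 3.02 in the Luc control. Its knock-down arrays spread over 1.69 and all lay above the control arrays, which sat in the plateau. The difference was 1.51 ± 0.35 SE (limma adjusted p = 0.0246), a call that held without knock-down replicate 2 or 3 and ended without any other array. Of the 16 rises, 6 started from control means under 4, where the size of a change depends on the plateau. Tcstv1, Tcstv3 and Tdpoz1, named after their values were seen, are expressed in 2-cell embryos and stayed under 3 on all 8 arrays without a call. The genes that fell were Calcoco2, an autophagy receptor, which had 9.64, 9.68, 9.59 and 9.49 in the Rad21 knock-down and 10.38, 10.49, 10.53 and 10.52 in the Luc control and differed by -0.88 ± 0.050 SE (limma adjusted p = 5.57e-05), and Rpl39l, a ribosomal protein paralogue, at -0.27 (limma adjusted p = 0.00291). Whether the lower Setdb1, Ehmt2, Daxx and Kdm1a transcripts have a part in these rises was not tested.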

How the data were processed

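Total RNA of 4 Rad21 esiRNA and 4 Luc esiRNA cultures was hybridised to Affymetrix mouse expression arrays. The deposited log2 values are those the authors obtained from Partek 6.4 with GCRMA. GCRMA subtracts a background modelled on probe GC content, gives every array the same distribution of probe values and then summarises probes into probe sets. It hides any shift of the whole transcriptome and leaves dim probe sets on a low plateau. Scanner files were not used here, and precision is limited by the number of arrays.

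Of 45101 probe sets 64 were controls. A single symbol was given for 34945, several for 932 and none here for 9160, and the brightest single-symbol probe set stood for a gene. Groups were compared with limma 3.58.1 (lmFit and eBayes, R 4.3.3), two-sided, with Benjamini-Hochberg adjustment over 45037 probe sets and calls at adjusted p under 0.05; the parametric analysis of variance of the methods was an alternative. Pairs of genes were compared by exact permutation. RefSeq promoters came from GRCm38.p6. Named genes are all repressors, Rad21, and, for either of the other lists, at most 8 called genes per direction whose groups do not overlap. The members, lists and tests were chosen with earlier results of these data known. Alternatives were the analysis of variance, a variance trend, replicate blocks, fits within replicates 1 and 2 and within 3 and 4, a minimum mean of 4, quantile normalization, centring, array weights, leaving out _x_at and _s_at probe sets or single arrays, other thresholds and averaging a gene's probe sets.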

Additional observations from a re-analysis of the deposited data

Results flagged for a closer look

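Among 54 groups of 4 arrays tested with Dixon's criterion, which are both groups at each probe set of the repressors and of Rad21, 4 held an array far from the other 3, where chance gives about 1 in 20. At the bright Ehmt2 probe set, Luc control replicate 3 stood at 10.45, below the nearest control at 10.64, and Ehmt2 was lower in the knock-down with and without it. At a Rif1 probe set that was not called, knock-down replicate 4 stood at 11.15, above the nearest knock-down array at 10.70. At 2 dim probe sets in the plateau, control replicate 1 was the highest array of its group, at 3.40 for Atrx and at 2.82 for Ehmt2.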

How the results depend on the processing

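Setdb1, Ehmt2, Kdm1a and Daxx kept their fall in every alternative over all 8 arrays and without each array in turn, but with probe sets averaged Setdb1 was -0.16 and Ehmt2 -0.24, against -0.47 and -0.49. At their brightest probe sets Kdm1a was not called within replicates 1 and 2, nor Ehmt2 within replicates 3 and 4. The second Kdm1a probe set was called within replicates 1 and 2 and not within replicates 3 and 4. The count of 1 higher repressor gene (Rif1) became 0 under the plain analysis of variance, within replicates 3 and 4 and at adjusted p under 0.01, and 2 (with Ehmt1) under quantile normalization, centring and adjusted p under 0.10. It stayed at 1 with another gene within replicates 1 and 2 (Atrx, adjusted p = 0.0171, Rif1 0.0677) and with probe sets averaged (Ehmt1 0.0442, Rif1 0.0645). Uncalled values changed sign for Atrx within replicates 3 and 4 (-0.018) and with probe sets averaged (-0.10), and for Trim28 without _x_at and _s_at probe sets (0.0048). Called repressor probe sets that were higher numbered 0 under the analysis of variance, within replicates 3 and 4 and at 0.01, and 1 with a variance trend, within replicates 1 and 2 and without _x_at and _s_at probe sets, against 2. Lower ones numbered 3 within replicates 3 and 4, against 5. Lower partners numbered 7 with the replicate block, within replicates 1 and 2 and at 0.01, 5 within replicates 3 and 4, and 18 when a gene's probe sets were averaged, against 11. At 0.01 higher partners numbered 3 and higher 2-cell and germline genes 10. Over all probe sets, 2402 were lower within replicates 3 and 4 and 2199 at 0.01, where 1694 were higher, against 3784 lower and 2913 higher. With probe sets averaged, Trim28 minus Setdb1 was 0.11 and Daxx minus Atrx was -0.25, neither past the threshold. Leaving out single arrays gave between 4 and 5 lower and between 0 and 1 higher repressor genes, between 5 and 6 lower and between 0 and 1 higher repressor probe sets, between 8 and 9 lower and between 5 and 7 higher partners, 2 lower and between 11 and 15 higher 2-cell and germline genes, and between 3011 and 3475 lower and between 2307 and 2735 higher probe sets. Replicate numbers did not pair the samples (correlations of same-numbered deviations of 0.0215, 0.133, 0.0735 and 0.132), and with the number as a block repressor calls numbered 4 lower and 1 higher. With replicates 1 and 2 against 3 and 4 as a block, 5 were lower (Chaf1b added), as with a minimum mean of 4 and with probe sets averaged. Scaling moved the median of all differences by under 0.1, but it moved the balance of calls. Centring gave 3385 higher and 3390 lower probe sets, and quantile normalization 3049 and 3681, against 2913 and 3784. The cause of these shifts was not tested.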
